A study of Mus musculus with 7 samples.

Results

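Neutrophils carry their weapons in granules that are filled at successive steps of development in the bone marrow, and 8 genes that encode granule proteins were followed here through hearts of newborn and adult mice. Elane, Mpo, Prtn3 and Ctsg encode primary (azurophil) granule proteins, and Camp, Ngp, Ltf and Chil3 encode secondary (specific) granule proteins. All 8 symbols were found once each among the 32285 genes of the deposited tables. The cells that carried them were found by a rule: cells in which the 8 genes together gave at least 0.5% of the cell's unique molecular identifiers (UMIs, 1 per captured transcript), called granule-gene cells below. There were 715 such cells among 36645 cells kept. A cell was called primary-led where the primary genes gave at least 0.8 of the 8 genes' UMIs, and secondary-led where they gave at most 0.2.

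Granule proteins are made in waves. Promyelocytes, the early dividing precursors, transcribe the primary granule genes and then shut them off, while myelocytes and metamyelocytes transcribe the secondary granule genes. Segmented neutrophils in blood and tissue hold the finished proteins but little of either set of transcripts. Within the lineage these transcripts therefore report on young cells rather than on neutrophils in general. In a tissue, Chil3, Prtn3 and Ctsg are also found in other cell types, as described below.

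The samples were hearts of mice after myocardial infarction (MI) or a sham operation, digested with collagenase and DNase. Leukocytes (CD45+ cells) were enriched and put back with CD45- cells at 2 to 1, which sets the share of any cell type in these data. There were 7 libraries in 6 groups: Mertk KO P1 MI, Mertk KO P1 sham, WT 8 week MI, WT 8 week sham, WT P1 MI (2 libraries, replicates 1 and 2) and WT P1 sham. WT mice were C57BL6/J, KO mice carried the label MerTK KO (after a receptor with which macrophages take up dying cells), P1 is the newborn age and 8 weeks the adult age. What was removed from Mertk, in which cells, how many hearts went into a library and the time from surgery to harvest are not in the labels. Nor is it said whether replicates 1 and 2 were separate animals, and p-values below measure a spread between 2 libraries that may be technical.

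The 7 libraries held 767 to 13306 kept cells with a median of 2142 to 11410 UMIs per cell, the lowest median being that of WT 8 week MI. Mertk transcripts were counted at 16.2 and 13.2 CPM (UMIs of a gene per 1000000 UMIs counted) in the KO libraries and at 6.49 to 10.8 CPM in the WT P1 libraries. A count near the end of the transcript does not test a deletion elsewhere in the gene. The file headers name Cell Ranger 6.1.0 for WT 8 week sham and for replicate 2 of WT P1 MI, and 4.0.0 for the others. Between any pair of libraries, shared cell barcodes were at most 0.590% of the smaller library.

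The genes lie on 5 chromosomes of the mouse genome (GRCm38, GENCODE vM21). Elane, which encodes neutrophil elastase, spans chr10:79886247-79888215 on the plus strand, just beside Prtn3, which encodes proteinase 3 and spans chr10:79874476-79883174 on the same strand. Mpo, for myeloperoxidase, the enzyme that makes hypochlorous acid, spans chr11:87793581-87804413 on the plus strand. Ctsg, for cathepsin G, a protease that mast cells also store, spans chr14:56099881-56102574 on the minus strand. Camp, for the antimicrobial cathelicidin, spans chr9:109847379-109849617 on the minus strand. Ngp, for neutrophilic granule protein, spans chr9:110419747-110423012 and Ltf, for the iron-binding lactotransferrin, spans chr9:111019271-111042767, both on the plus strand of the same chromosome as Camp. Chil3, for the chitinase-like protein Ym1, which mouse monocytes and macrophages make as well, spans chr3:106147554-106167564 on the minus strand.

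Some of these genes share bases or sequence with others, and the sources used here do not say whether counting used strand. Prtn3 overlaps Plppr3 on the opposite strand by 159 bases. Plppr3 had 8 to 189 UMIs per library, against 18 to 4788 UMIs of Prtn3. Mpo overlaps the antisense gene Gm11505, which had 0 or 1 UMI in each library. Chil4, a close copy of Chil3, had 0 UMIs in all 7 libraries, and the labels do not say how reads that match both were counted.

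The sequences just upstream of the primary genes are shown because all 4 hold the same 7 letters, AGGAAGT, within 250 bases of the start in the RefSeq promoter table (GRCm38.p6), which matched all 8 genes. The letters were picked after the sequences had been seen, and hold GGAA, the core that factors of the ETS family are known to bind. They are in capitals, each sequence is 5′ to 3′ on the gene's strand, and each stops at the first base that GENCODE marks as an exon of the gene. For Prtn3 the RefSeq start lies 5191 bases inside the longer GENCODE span given above, so its sequence lies upstream of the RefSeq start only.
Elane, chr10:79886062-79886246, plus strand: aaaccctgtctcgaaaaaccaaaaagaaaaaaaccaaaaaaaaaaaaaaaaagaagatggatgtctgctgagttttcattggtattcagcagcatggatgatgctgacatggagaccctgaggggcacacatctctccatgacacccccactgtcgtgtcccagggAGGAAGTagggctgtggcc
Mpo, chr11:87793534-87793580, plus strand: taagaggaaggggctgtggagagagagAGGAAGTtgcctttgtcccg
Prtn3, chr10:79879417-79879613, plus strand: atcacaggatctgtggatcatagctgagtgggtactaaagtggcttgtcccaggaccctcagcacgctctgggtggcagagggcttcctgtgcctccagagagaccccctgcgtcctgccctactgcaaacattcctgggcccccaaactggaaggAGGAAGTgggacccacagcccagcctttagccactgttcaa
Ctsg, chr14:56102575-56102824, minus strand: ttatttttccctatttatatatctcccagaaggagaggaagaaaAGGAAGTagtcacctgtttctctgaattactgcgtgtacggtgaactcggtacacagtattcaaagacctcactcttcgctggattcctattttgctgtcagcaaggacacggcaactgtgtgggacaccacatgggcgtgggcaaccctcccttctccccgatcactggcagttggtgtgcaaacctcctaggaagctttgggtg
Chil3, chr3:106167565-106167814, minus strand, with the letters on the other strand (ACTTCCT): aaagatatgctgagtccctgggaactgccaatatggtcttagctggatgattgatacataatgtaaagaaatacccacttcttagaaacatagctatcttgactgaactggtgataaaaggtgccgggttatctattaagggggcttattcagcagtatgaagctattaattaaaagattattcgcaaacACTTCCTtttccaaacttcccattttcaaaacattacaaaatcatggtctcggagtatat

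The letters began 84 bases before the start in Elane, 223 in Mpo, 94 in Prtn3, 206 in Ctsg and 60 in Chil3. Searched on both strands, they were present in 4 of 4 primary and 1 of 4 secondary genes, against 2525 of all 32851 promoters of the same length in the table (7.69%). A match is only a run of letters, and these data do not measure binding.

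The 3 secondary genes Camp, Ngp and Ltf were high in both KO libraries and both WT P1 MI libraries and low in WT P1 sham and in both 8 week libraries, whereas Chil3 had a pattern of its own with its highest level in WT 8 week MI. Levels are in CPM over all kept cells of a library, a count of transcript ends rather than of reads per length. Such whole-library levels mix the share of cells that carry a gene with the amount per cell, so fewer cells and less RNA per cell cannot be told apart from them. All intervals given here are 95% exact intervals that cover counting error only.

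Camp was at 214 CPM in Mertk KO P1 MI, 336 in Mertk KO P1 sham, 19.4 in WT 8 week MI, 6.85 in WT 8 week sham, 344 in replicate 1 and 306 in replicate 2 of WT P1 MI, and 34.5 in WT P1 sham. Ngp was at 604 CPM in Mertk KO P1 MI, 1189 in Mertk KO P1 sham, 46.4 in WT 8 week MI, 8.56 in WT 8 week sham, 265 in replicate 1 and 444 in replicate 2 of WT P1 MI, and 61.4 in WT P1 sham. Ltf was at 156 CPM in Mertk KO P1 MI, 220.3 in Mertk KO P1 sham, 5.39 in WT 8 week MI, 2.95 in WT 8 week sham, 59.95 in replicate 1 and 123 in replicate 2 of WT P1 MI, and 19.8 in WT P1 sham. For these 3 genes the 4 libraries of KO and infarcted WT P1 hearts all lay above the other 3, and the KO sham library lay above its KO MI partner. Chil3 was at 35.7 CPM in Mertk KO P1 MI, 314 in Mertk KO P1 sham, 665 in WT 8 week MI, 25.7 in WT 8 week sham, 85.6 in replicate 1 and 26.2 in replicate 2 of WT P1 MI, and 2.54 in WT P1 sham. Both WT P1 MI libraries were above WT P1 sham in Chil3, and both were far below WT 8 week MI.

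The primary genes were scarce, and most of what was counted came from very few cells. Elane was at 0.776 CPM in Mertk KO P1 MI, 0.520 in Mertk KO P1 sham, 8.63 in WT 8 week MI, 0.135 in WT 8 week sham, 113 in replicate 1 and 4.30 in replicate 2 of WT P1 MI, and 0.106 in WT P1 sham. A single cell gave 93.8% of the Elane UMIs in WT 8 week MI, 76.7% in WT P1 MI replicate 1 and 63.8% in replicate 2, so each of these 3 levels rests on 1 cell. Mpo was at 3.72 CPM in Mertk KO P1 MI, 0.743 in Mertk KO P1 sham, 5.12 in WT 8 week MI, 0.626 in WT 8 week sham, 82.1 in replicate 1 and 1.41 in replicate 2 of WT P1 MI, and 0.265 in WT P1 sham. Ctsg was at 1.89 CPM in Mertk KO P1 MI, 0.0372 in Mertk KO P1 sham (1 UMI), 2.16 in WT 8 week MI, 0.0369 in WT 8 week sham (3 UMIs), 27.2 in replicate 1 and 2.43 in replicate 2 of WT P1 MI, and 2.22 in WT P1 sham. The 16 Ctsg UMIs of WT 8 week MI came from the same cell as its Elane.

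Prtn3 differed from its 3 partners in being spread over many cells. It was at 57.2 CPM in Mertk KO P1 MI, 17.7 in Mertk KO P1 sham, 128 in WT 8 week MI, 58.8 in WT 8 week sham, 145 in replicate 1 and 23.3 in replicate 2 of WT P1 MI, and 0.953 in WT P1 sham. Its UMIs were found in 1141 of 6235 cells of Mertk KO P1 MI and in 693 of 13306 cells of WT 8 week sham, where Elane had 11 UMIs in 11 cells. In WT P1 sham Prtn3 had 18 UMIs in 15 of 1566 cells.

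**Figure D1:**
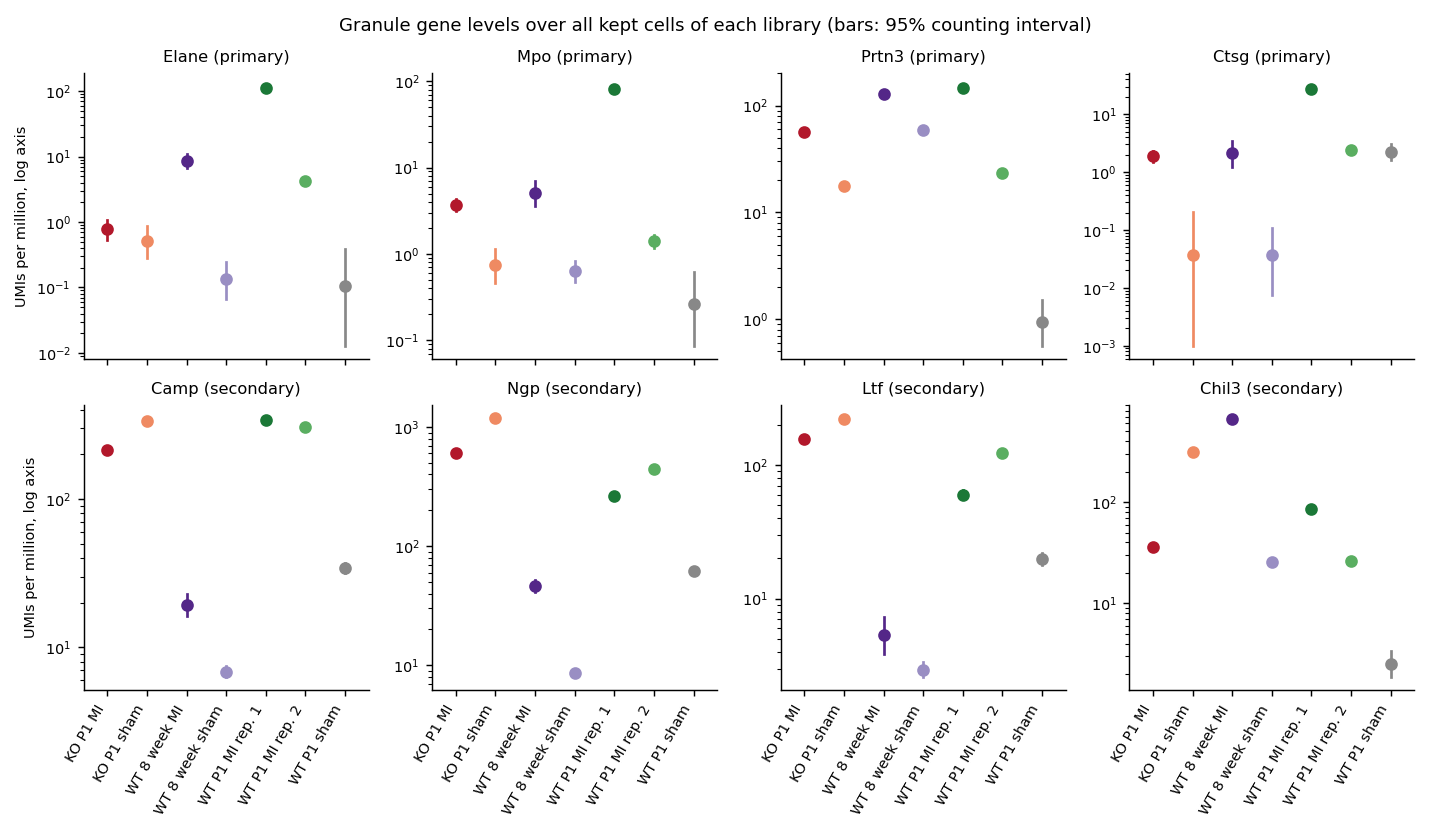
Level of each of the 8 granule genes in each of the 7 libraries, in CPM over all kept cells on a log axis; points are libraries and bars are 95% counting intervals. Camp, Ngp and Ltf are low in the 8 week and WT P1 sham libraries, Chil3 is highest in WT 8 week MI at 665, and Elane, Mpo, Prtn3 and Ctsg are highest in WT P1 MI replicate 1.

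The spread between the replicates of WT P1 MI differed widely between the sets. Camp averaged 325 ± 27.0 CPM there and Ngp 354 ± 127 CPM (SD, n = 2 each), and the higher replicate was 1.13 times the lower for Camp, 1.68 for Ngp, 2.05 for Ltf and 3.27 for Chil3. Elane averaged 58.5 ± 76.7 CPM and Mpo 41.8 ± 57.1 CPM (SD, n = 2 each), with replicate 1 above replicate 2 by 26.2 times for Elane, 58.3 for Mpo, 11.2 for Ctsg and 6.21 for Prtn3. Replicate 1 had 767 kept cells, and its high primary levels came from 2 cells described further on.

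Age after infarction was tested with edgeR's quasi-likelihood test on whole-library sums of 16854 genes, in 1 fit of all libraries which takes the spread of the WT P1 MI pair for every lone library too. In WT 8 week MI against WT P1 MI, 4 of the 8 genes passed an adjusted p of 0.05 and a log2 fold change of at least 1 in size, against 29.9% of all genes tested (12.4% higher, 17.5% lower). Chil3 rose by 4.12 ± 0.59 on the log2 scale (SE, adjusted p = 0.00263, edgeR). Camp fell by 3.58 ± 0.46 (adjusted p = 0.00194, edgeR), Ltf fell by 3.64 ± 0.64 (adjusted p = 0.00552, edgeR) and Ngp fell by 2.48 ± 0.60 (adjusted p = 0.0185, edgeR). Both WT P1 MI replicates lay on the same side of WT 8 week MI for these 4 genes. By markers described below, neutrophils were 16 of 3050 cells in WT 8 week MI (0.525%). They were 2.22% and 7.78% in replicates 1 and 2 of WT P1 MI, and the part of this shift in the 4 differences was not tested. In WT 8 week MI, Camp rested on 144 UMIs, 50.7% of them in 1 cell, and Ltf on 40 UMIs in 10 cells. With 1 replicate left out at a time, the log2 difference was 3.54 to 5.04 for Chil3, -3.59 to -3.55 for Camp, -4.11 to -2.87 for Ltf and -2.88 to -1.92 for Ngp, the 3.54, -2.87 and -1.92 being those without replicate 2. These values have no test. The median of all genes was -0.30 in this comparison with edgeR's scaling and -0.14 with that of DESeq2, and the 4 genes were called with both tools. Scaling moves the log2 differences from WT P1 MI, relative to plain CPM, by 0.50 for Mertk KO P1 MI and 0.48 for WT 8 week MI.

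The primary genes gave no call with age. The log2 differences of WT 8 week MI against WT P1 MI were -2.17 ± 1.45 for Elane, -2.43 ± 1.76 for Mpo, -2.18 ± 1.25 for Ctsg and 1.18 ± 0.76 for Prtn3 (SE), with adjusted p of 0.288, 0.325, 0.221 and 0.272 in edgeR. Without replicate 1 the values were 1.39 for Elane, 2.25 for Mpo and 0.25 for Ctsg, and without replicate 2 they were -3.11, -3.40 and -3.03. The direction of these 3 therefore rested on 1 library, replicate 1 of WT P1 MI, while Prtn3 was at 2.84 without replicate 1 and 0.41 without replicate 2.

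Infarction at P1 was set against the single WT P1 sham library. None of the 8 genes was called in WT P1 MI against WT P1 sham by edgeR, where 0.0178% of all genes were called. An unadjusted p under 0.05 in edgeR was reached by 7 of the 8 and by 929 of all 16854 genes. DESeq2 called 6 of the 8 (Elane, Prtn3, Camp, Ngp, Ltf and Chil3) and 103 of all genes. The log2 difference was 3.27 ± 0.44 for Camp (adjusted p = 0.0652, edgeR), 2.59 ± 0.60 for Ngp, 2.28 ± 0.56 for Ltf and 4.43 ± 0.78 for Chil3 (SE). Among primary genes it was 6.41 ± 1.17 for Prtn3, 8.99 ± 2.34 for Elane, 7.20 ± 2.42 for Mpo and 2.65 ± 1.20 for Ctsg (SE). All 8 were higher in the mean of WT P1 MI, and the value for Ctsg was 0.25 without replicate 1, since replicate 2 at 2.43 CPM lay close to WT P1 sham at 2.22 CPM. The sham library holds 1566 cells, of which 40 fell in a neutrophil marker class (a cell's class is the one of which it held most of 6 markers, at least 2) without passing the 0.5% floor and 5 passed it.

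Genotype after infarction gave no call either: of all genes tested, 12% were called between Mertk KO P1 MI and WT P1 MI (6.44% higher, 5.57% lower in the KO). The log2 difference was -0.10 ± 0.37 for Camp, 1.24 ± 0.51 for Ngp, 1.23 ± 0.48 for Ltf and -0.08 ± 0.59 for Chil3 (SE), with adjusted p of 0.895, 0.157, 0.141 and 0.945 in edgeR. For the primary genes it was 0.03 ± 0.78 for Prtn3, -5.62 ± 1.75 for Elane (adjusted p = 0.0784, edgeR), -2.87 ± 1.72 for Mpo and -2.34 ± 1.15 for Ctsg (SE). At an unadjusted p under 0.05 in edgeR, 3 of the 8 passed, against 4734 of all 16854 genes. DESeq2 called 0 of the 8 and 1579 of all genes. Without replicate 1 the difference was -2.05 for Elane, 1.80 for Mpo and 0.05 for Ctsg, and without replicate 2 it was -6.55, -3.85 and -3.23.

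Other genes of the neutrophil lineage did rise in the same comparison, in which the share of neutrophils differed too. Cells of a neutrophil marker class were 3023 of 6235 in Mertk KO P1 MI (48.5%), against 17 of 767 (2.22%) in WT P1 MI replicate 1 and 713 of 9170 (7.78%) in replicate 2. The rises below are of whole libraries, and the part of this shift in them was not tested. The markers of that class, Csf3r, Cxcr2, Retnlg, Mmp9, Il1r2 and Ly6g, are also members of the lists below, so the class and the lists share counts. The 16 genes of mature neutrophils and gelatinase granules had a median log2 difference of 3.104, against -0.10 over all genes tested. In the infarcted KO heart 11 of them rose and none fell relative to WT, where 6.44% of all genes were called higher. Il1b, the inflammatory cytokine interleukin-1 beta, was among them, at 4910 CPM in Mertk KO P1 MI and 156 and 822 CPM in the WT P1 MI libraries (log2 difference 3.76 ± 0.95, SE, adjusted p = 0.0415, edgeR). Of 12 other specific granule and myelocyte genes, 5 rose, with a median of 2.64, among them Lcn2, for the iron-siderophore binder lipocalin-2, at 4042 CPM in Mertk KO P1 MI and 102 and 534 CPM in WT P1 MI (4.10 ± 0.93, SE, adjusted p = 0.0300, edgeR), and Hp, for haptoglobin (4.61 ± 1.11, SE, adjusted p = 0.0352, edgeR). S100a8, an abundant calcium-binding protein of neutrophils, had a log2 difference of 2.61 ± 1.09 that did not pass (adjusted p = 0.163, edgeR).

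Further lists set the members in their neighbourhood. Of 6 genes for processing, storing and inhibiting granule proteases, 2 rose in the infarcted KO heart and 2 in the infarcted 8 week heart, both relative to WT P1 MI, where 6.44% and 12.4% of all genes were called higher. Slpi, an elastase inhibitor, rose in both, by 4.17 ± 0.91 in the KO (adjusted p = 0.0266, edgeR) and by 4.22 ± 0.91 at 8 weeks (SE, adjusted p = 0.0121, edgeR). Ctsc, the protease that activates elastase, proteinase 3 and cathepsin G, rose at 8 weeks by 3.80 ± 0.53 (SE, adjusted p = 0.00248, edgeR). Srgn, the proteoglycan on which granule proteins are stored, rose in the KO by 2.39 ± 0.59 (SE, adjusted p = 0.0391, edgeR). These comparisons share the WT P1 MI libraries, and these genes are also expressed by other leukocytes.

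Of 9 early precursor genes, 2 fell in the KO (5.57% of all genes were called lower there) and 2 fell and 1 rose at 8 weeks, shares near those of all genes (17.5% lower and 12.4% higher). Kit and Cd34 fell in both, and they are also genes of mast cells and of endothelium, so they do not stand for precursors alone in a heart digest. Of 11 tested genes of eosinophils, basophils and mast cells, 5 fell and 2 rose in the KO, and 5 fell at 8 weeks. Cma1, a mast cell protease, was at 29.8 CPM in Mertk KO P1 MI and 0.135 in WT 8 week MI, against 349.6 and 206 CPM in the WT P1 MI libraries. The Ctsg level of a heart holds this second source, whose part in the Ctsg differences was not tested. In WT P1 sham, 25 and 9 of the 42 Ctsg UMIs lay in cells that held Cma1 and Mcpt4.

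The way infarction changed the genes in the KO was set against the way it did so in WT P1. For injury by genotype, that is (Mertk KO P1 MI minus sham) minus (WT P1 MI minus sham), none of the 8 was called by edgeR against 0.0771% of all genes (0.0475% higher, 0.0297% lower). In edgeR 6 of the 8 had an unadjusted p under 0.05, as did 1648 of all 16854 genes. DESeq2 called 3 of the 8 (Camp, Ngp and Chil3) and 65 of all genes. The value was -3.36 ± 0.60 for Camp (adjusted p = 0.2304, edgeR), -3.01 ± 0.84 for Ngp, -2.22 ± 0.79 for Ltf and -7.01 ± 1.06 for Chil3 (SE, adjusted p = 0.115, edgeR). For injury by age, with 3.68% of all genes called (0.932% higher, 2.75% lower), none of the 8 was called. In edgeR 2 of them had an unadjusted p under 0.05 (Prtn3 at -5.03 ± 1.40 and Camp at -1.50 ± 0.59, SE), as did 3727 of all 16854 genes. DESeq2 called 0 of the 8 and 776 of all genes.

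Behind the genotype values lies a high KO sham library. Over single libraries, as ratios of plain CPM with no test, Mertk KO P1 MI was 0.635 times Mertk KO P1 sham for Camp (0.617 to 0.654), 0.508 times for Ngp, 0.708 times for Ltf and 0.114 times for Chil3, but 3.24 times for Prtn3 and 5.01 times for Mpo. Mertk KO P1 sham was 9.74 times WT P1 sham for Camp (8.997 to 10.6), 19.4 times for Ngp, 11.1 times for Ltf, 124 times for Chil3 and 18.6 times for Prtn3, but 0.0167 times for Ctsg (1 UMI against 42). At 8 weeks, WT MI was 63.8 times WT sham for Elane (33.4 to 134), from 64 and 11 UMIs of which 60 came from 1 cell, 25.9 times for Chil3 and 2.18 times for Prtn3. The adult sham library set against the newborn one, WT 8 week sham was 61.7 times WT P1 sham for Prtn3 and 10.1 times for Chil3, and only 0.199 times for Camp, 0.140 for Ngp, 0.149 for Ltf and 0.0166 for Ctsg (3 UMIs against 42).

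Counted as cells, granule-gene cells made up 189 of 6235 cells in Mertk KO P1 MI (3.03%, 2.62 to 3.49), 174 of 2551 in Mertk KO P1 sham (6.82%, 5.87 to 7.87), 175 of 3050 in WT 8 week MI (5.74%, 4.94 to 6.62), 9 of 13306 in WT 8 week sham (0.0676%), 7 of 767 in WT P1 MI replicate 1 (0.913%, 0.368 to 1.87), 155 of 9170 in replicate 2 (1.69%, 1.44 to 1.98) and 6 of 1566 in WT P1 sham (0.383%). They averaged 1.30 ± 0.55% of cells in WT P1 MI (SD, n = 2). The share of all cells was thus above both WT P1 MI libraries in the KO and in WT 8 week MI, and below both in WT 8 week sham and WT P1 sham. The interval of WT P1 sham (0.141 to 0.832) overlapped that of replicate 1. Within the neutrophil class the order was another one. There granule-gene cells were 160 of 3023 in Mertk KO P1 MI (5.29%), 142 of 524 in Mertk KO P1 sham (27.1%), 1 of 16 in WT 8 week MI, 3 of 891 in WT 8 week sham (0.337%), 4 of 17 in replicate 1 and 122 of 713 in replicate 2 of WT P1 MI (23.5% and 17.1%), and 5 of 45 in WT P1 sham. Mertk KO P1 MI, which held the most neutrophils, was thus below both WT P1 MI libraries by this measure.

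Nearly all of the 175 cells of WT 8 week MI were a different kind of cell. Of them, 170 passed the floor only because of Chil3, 136 had no UMI of the other 7 genes, and 149 of the 170 fell in the monocyte or macrophage marker class. Of the 318 cells of that library's monocyte class, 117 (36.8%) were granule-gene cells. Those 170 cells had 555 CPM of S100a8 and 1580 CPM of Ms4a6c, a monocyte gene, while the 5 cells that passed without Chil3 had 46340 CPM of S100a8. In Mertk KO P1 sham 49 of 174 cells needed Chil3, of which 27 were of the monocyte or macrophage class and 21 of the neutrophil class.

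Without Chil3, granule-gene cells numbered 185 in Mertk KO P1 MI, 125 in Mertk KO P1 sham, 5 in WT 8 week MI, 4 in WT 8 week sham, 6 in replicate 1 and 155 in replicate 2 of WT P1 MI, and 6 in WT P1 sham. That is 4.90% of Mertk KO P1 sham cells and 0.164% of WT 8 week MI cells. In the 3 libraries with over 100 such cells most were of the neutrophil class, numbering 158 of 185 in Mertk KO P1 MI, 121 of 125 in Mertk KO P1 sham, and in WT P1 MI replicate 2 they were 122 of 155. In WT 8 week MI 1 of the 5 was. At the floor itself lie 18 cells of Mertk KO P1 MI between 0.5% and 0.6% and 22 between 0.4% and 0.5%, 18 and 15 of Mertk KO P1 sham, 39 and 57 of WT 8 week MI, and 10 and 15 of WT P1 MI replicate 2.

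Doublet removal bore most on WT P1 MI replicate 2. It took 81 of 236 granule-gene cells there (34.3%, against 9.52% of all its cells), with a median of 26290 UMIs against 12390 in those kept. Of the 81, 29 fell in the marker class of another cell type and 8 were called by the automatic threshold. Kept in, they put the share of that library at 2.33% and its Camp at 432.5 CPM. In the other 6 libraries 0 to 12 granule-gene cells were removed.

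**Figure D2:**
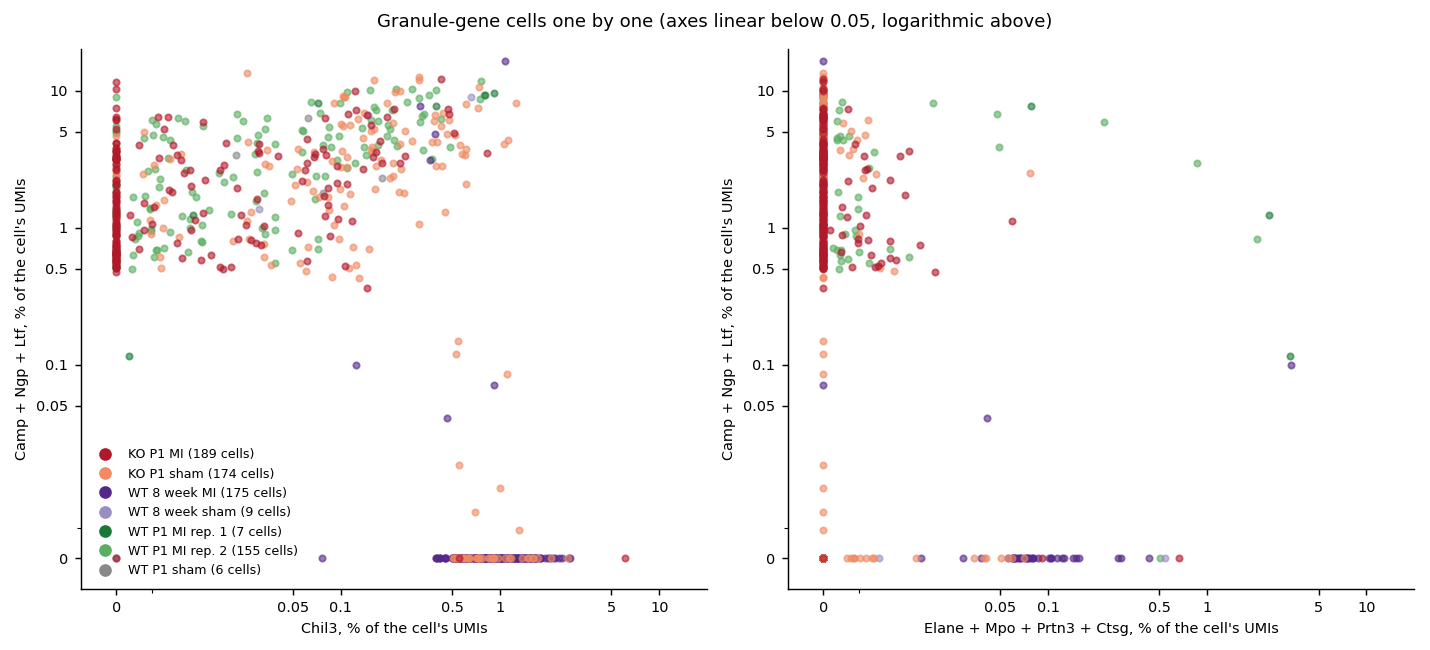
Each granule-gene cell as a point coloured by library, in percentages of its UMIs, with axes linear below 0.05 and logarithmic above. Camp, Ngp and Ltf together are set against Chil3 on the left and against the 4 primary genes on the right. Most cells outside the 8 week libraries lie along the axis of Camp, Ngp and Ltf, and WT 8 week MI holds cells carried by Chil3. The few cells with over 2% primary UMIs are in WT 8 week MI and both WT P1 MI replicates.

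Per cell, the split was almost all secondary. Primary-led cells numbered 1 of 189 in Mertk KO P1 MI, 0 of 174 in Mertk KO P1 sham, 2 of 175 in WT 8 week MI, 1 of 9 in WT 8 week sham, 1 of 7 in replicate 1 and 1 of 155 in replicate 2 of WT P1 MI, and 0 of 6 in WT P1 sham. Cells between both limits numbered 6 in WT 8 week MI, 1 in replicate 1 and 2 in replicate 2 of WT P1 MI, and 0 elsewhere. A granule-gene cell had no primary UMI at all in 82.0% of cases in Mertk KO P1 MI, 82.8% in Mertk KO P1 sham, 80.6% in WT 8 week MI and 77.4% in WT P1 MI replicate 2. The 0 of 174 cells of Mertk KO P1 sham allow a primary-led share of up to 2.10% (upper end of the 95% interval).

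Pooled over granule-gene cells, the primary genes gave 0.556% of the 8 genes' UMIs in Mertk KO P1 MI, 0.160% in Mertk KO P1 sham, 6.48% in WT 8 week MI, 2.35% in WT 8 week sham, 32.2% in replicate 1 and 1.69% in replicate 2 of WT P1 MI, and 0% in WT P1 sham. The 32.2% of replicate 1 comes from 7 cells, 2 of which held nearly all of it. Between libraries with over 100 cells that pass without Chil3, the pooled primary share was below 2% in each.

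Because Prtn3 was found in many cell types, the cells in which Elane, Mpo and Ctsg alone reached 0.1% of UMIs were listed one by one, an addition made after the data were seen, with cells removed as doublets included. There were 15, of 3 kinds by what else they held. The first kind, 7 cells, held all 4 primary transcripts with Ms4a3 and Cebpe, genes of granulocyte precursors, and 181 to 3557 UMIs of S100a8. In WT P1 MI replicate 1, a cell of 83583 UMIs held 986 Elane, 618 Mpo, 958 Prtn3 and 203 Ctsg UMIs, 96 of Camp, 1 of Ngp and 0 of Ltf, with 124 of Ms4a3 and 41 of Cebpe. A second cell of that library, of 50559 UMIs, held 293 Elane, 310 Mpo, 531 Prtn3 and 105 Ctsg UMIs and more Camp, 535. The first had the primary set nearly alone and the second had both sets.

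In WT P1 MI replicate 2 the matching cells were 1 of 45704 UMIs with 259 Elane, 85 Mpo, 486 Prtn3 and 112 Ctsg against 181 Camp and 195 Ngp, and 1 of 26051 UMIs with 68 Elane, 8 Mpo, 124 Prtn3 and 23 Ctsg against 547 Camp and 224 Ngp. Another 2 of that library had been removed as doublets, and these held 867 and 527 UMIs of Camp and markers of endothelium or macrophages. In WT 8 week MI a single cell of 4035 UMIs held 60 Elane, 23 Mpo, 37 Prtn3 and 16 Ctsg, 4 of Camp, 14 of Ms4a3 and 181 of S100a8. Cells of this kind were not found in the other 4 libraries.

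The second kind, 2 cells, held Mpo, Prtn3 and Ctsg with Ms4a3, Cd34 and Myb but next to no Elane, S100a8 or secondary transcript. One, of 26496 UMIs in Mertk KO P1 MI, held 41 Mpo, 67 Prtn3, 64 Ctsg and 5 Elane UMIs, and it is the only primary-led cell of that library and the source of 77.1% of its Ctsg. The other, in WT P1 MI replicate 2, held 127 Mpo, 125 Prtn3, 107 Ctsg and 9 Elane UMIs and had been removed as a doublet.

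The third kind, 6 cells, held Ctsg with 0 UMIs of Elane, Mpo and Prtn3, and 76 to 423 UMIs of Mcpt4 and 220 to 523 UMIs of Cma1, proteases of connective tissue mast cells. They came from Mertk KO P1 MI (1 cell), WT 8 week sham (1, removed as a doublet), WT P1 MI replicate 2 (2) and WT P1 sham (2). The primary-led cell of WT P1 MI replicate 2 is one of them, with 40 Ctsg UMIs of 7938 (0.504%), so no kept cell of the first kind was primary-led there. The primary-led cell of WT 8 week sham held 21 Prtn3 UMIs and none of the other 3. In WT P1 sham, such a cell with 25 UMIs gave 59.5% of the library's Ctsg.

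**Figure D3:**
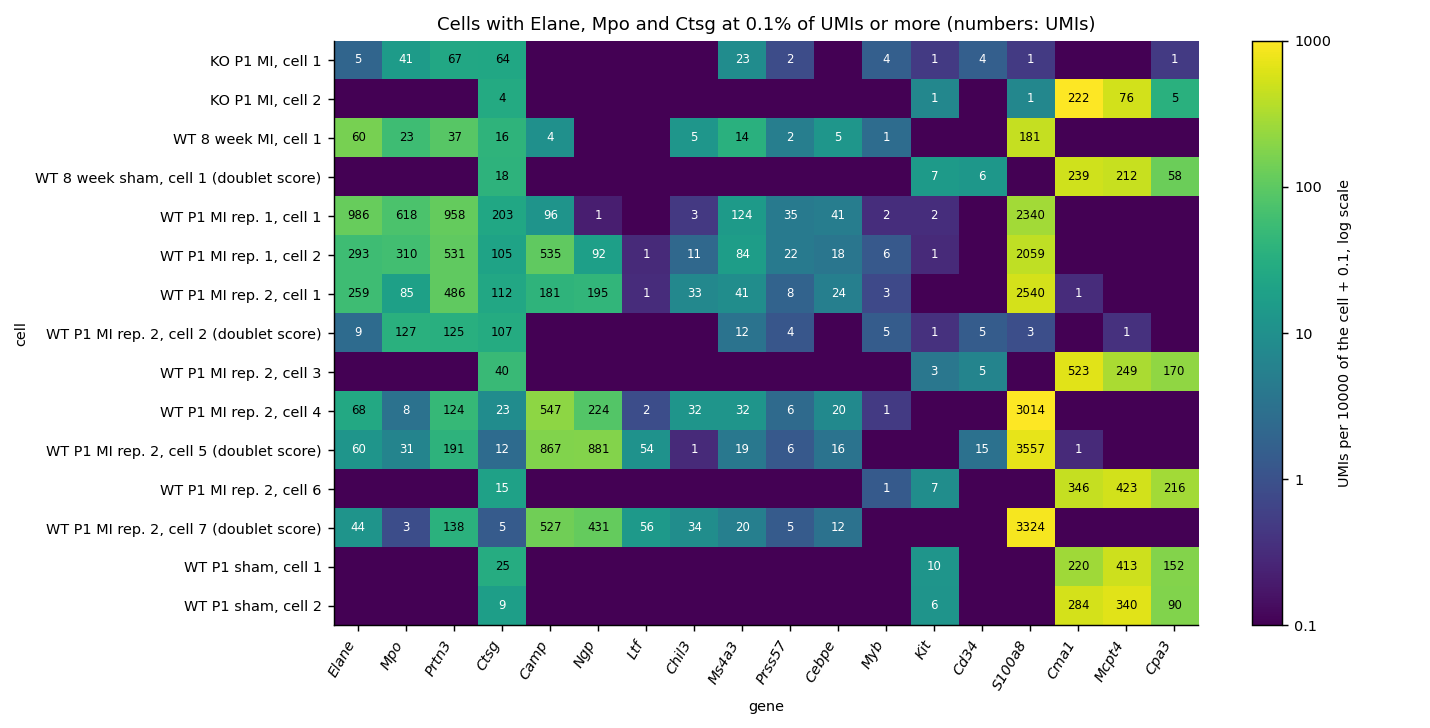
The 15 cells in which Elane, Mpo and Ctsg together reached 0.1% of UMIs, 1 row per cell, with the UMIs of the granule genes and of genes of precursors and mast cells printed in each box. Cells with Elane, Ms4a3 and S100a8 are seen in WT 8 week MI and both WT P1 MI replicates, and cells with Ctsg and 0 Elane hold Cma1 and Mcpt4.

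Among the granule-gene cells that passed without Chil3, the secondary genes, on which the rule rests, can be described in the 3 libraries that held over 100 of them. Ngp was at 14330 CPM in Mertk KO P1 MI, 26060 in Mertk KO P1 sham, with 15990 in WT P1 MI replicate 2 cells. Camp was at 5418 CPM in Mertk KO P1 MI, 7525 in Mertk KO P1 sham, with 11280 in WT P1 MI replicate 2 cells, and Ltf at 3879, 4934 and 4362 CPM in the same order. Chil3, which the gate did not use here, was at 457 CPM in Mertk KO P1 MI, 2276 in Mertk KO P1 sham, with 870.1 in WT P1 MI replicate 2 cells. With 1 library per genotype and surgery no test was possible, and the planned edgeR fit of these cells was not run because WT P1 MI replicate 1 held 6 of them (7 with Chil3).

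Other transcripts of the same cells were not part of the rule. Il1b was at 4415 CPM in Mertk KO P1 MI, 930.4 in Mertk KO P1 sham, with 1858 in WT P1 MI replicate 2 cells that passed without Chil3, and Lcn2 at 16150, 18210 and 9557 CPM. Slpi, the elastase inhibitor, was at 2035, 1054 and 902 CPM in the same order. Cma1 was at 215 CPM in the WT P1 MI replicate 2 cells. In those of Mertk KO P1 MI and Mertk KO P1 sham it was at 0.611 and 0 CPM. Most of the 215 CPM came from 1 cell with 523 Cma1 UMIs, which passed the floor through Ctsg.

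Camp and Ngp did not decline together from granule-gene cells to other neutrophils. Of the UMIs of both genes, Ngp gave 72.6% in granule-gene cells of Mertk KO P1 MI, 77.6% in Mertk KO P1 sham, with 58.6% in WT P1 MI replicate 2. In cells of the neutrophil class under the floor it gave 90.0%, 93.0% and 77.1% in the same order. There Ngp was at 191 CPM in Mertk KO P1 MI, 619 in Mertk KO P1 sham, with 391 in WT P1 MI replicate 2, and Camp at 21.1, 46.2 and 116 CPM. The floor itself was set on the sum of the genes, so the drop of each is part of the choice, and the ratio between them is a description.

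Outside the granule-gene cells Prtn3 was found in monocytes, macrophages and other neutrophils, in most libraries nearly without its partners. In cells of the macrophage class it was at 22.0 CPM in Mertk KO P1 MI, 27.0 in Mertk KO P1 sham, 144 in WT 8 week MI, 317.5 in WT 8 week sham, 89.8 in replicate 1 and 17.9 in replicate 2 of WT P1 MI, and 0 UMIs in 233 cells of WT P1 sham, which allows up to 1.25 CPM. In cells of the monocyte class it was at 157 CPM in Mertk KO P1 MI, 82.3 in Mertk KO P1 sham, 54.4 in WT 8 week MI, 13.9 in WT 8 week sham, 9.73 in replicate 1 and 170.1 in replicate 2 of WT P1 MI, and 12.9 in WT P1 sham. The adult libraries and WT P1 MI replicate 1 were thus higher in macrophages, and the other 4 newborn libraries in monocytes, with 8 UMIs in monocytes of WT P1 sham. In neutrophils under the floor Prtn3 was at 62.7 CPM in Mertk KO P1 MI (728 UMIs), 15.4 in Mertk KO P1 sham, 118 in WT 8 week MI (3 UMIs), 23.5 in WT 8 week sham, 0 in replicate 1 and 37.5 in replicate 2 of WT P1 MI, and 0 in WT P1 sham.

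Of cells of the macrophage class, 54.9% had a Prtn3 UMI in WT 8 week sham (median 12090 UMIs per cell), against 1.23% of B and T cells there (median 3146 UMIs), a class in which the gene is not known to be used. B and T cells held 4.60 CPM of Prtn3 in Mertk KO P1 MI, 4.17 in Mertk KO P1 sham, 20.7 in WT 8 week MI, 21.6 in WT 8 week sham, 3.99 in WT P1 MI replicate 2, and 0 UMIs in WT P1 MI replicate 1 and WT P1 sham. The level in B and T cells was meant to stand for free RNA. In WT 8 week sham, however, its 569 UMIs lay in 70 of 5671 such cells and were not spread evenly, and their source was not tested. The macrophage level of WT 8 week sham was far above that of its B and T cells. Its monocytes, at 13.9 CPM, were below the B and T cell level and its neutrophils close to it. Prtn3 gave 99.7% of the primary genes' UMIs in macrophages of WT 8 week sham (3277 of 3286), 99.6% in those of WT 8 week MI and 96.7% in monocytes of Mertk KO P1 MI, while in granule-gene cells it gave 50.2% in Mertk KO P1 MI, 95.2% in Mertk KO P1 sham (80 of 84), 52.4% in WT 8 week MI, 100% in WT 8 week sham (45 of 45), and 38.0% in replicate 1 and 54.1% in replicate 2 of WT P1 MI. The low shares came from the few cells described above. In Mertk KO P1 MI 1 cell held 110 of the 111 UMIs of Elane, Mpo and Ctsg. With the cells of that list left out, Prtn3 gave 97.8% in Mertk KO P1 MI (45 of 46), 97.4% in WT 8 week MI, and 96.2% in replicate 1 and 78.9% in replicate 2 of WT P1 MI, a calculation added after the data were seen. The list was chosen on Elane, Mpo and Ctsg, so a higher Prtn3 share without it follows from that choice and is no test.

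**Figure D4:**
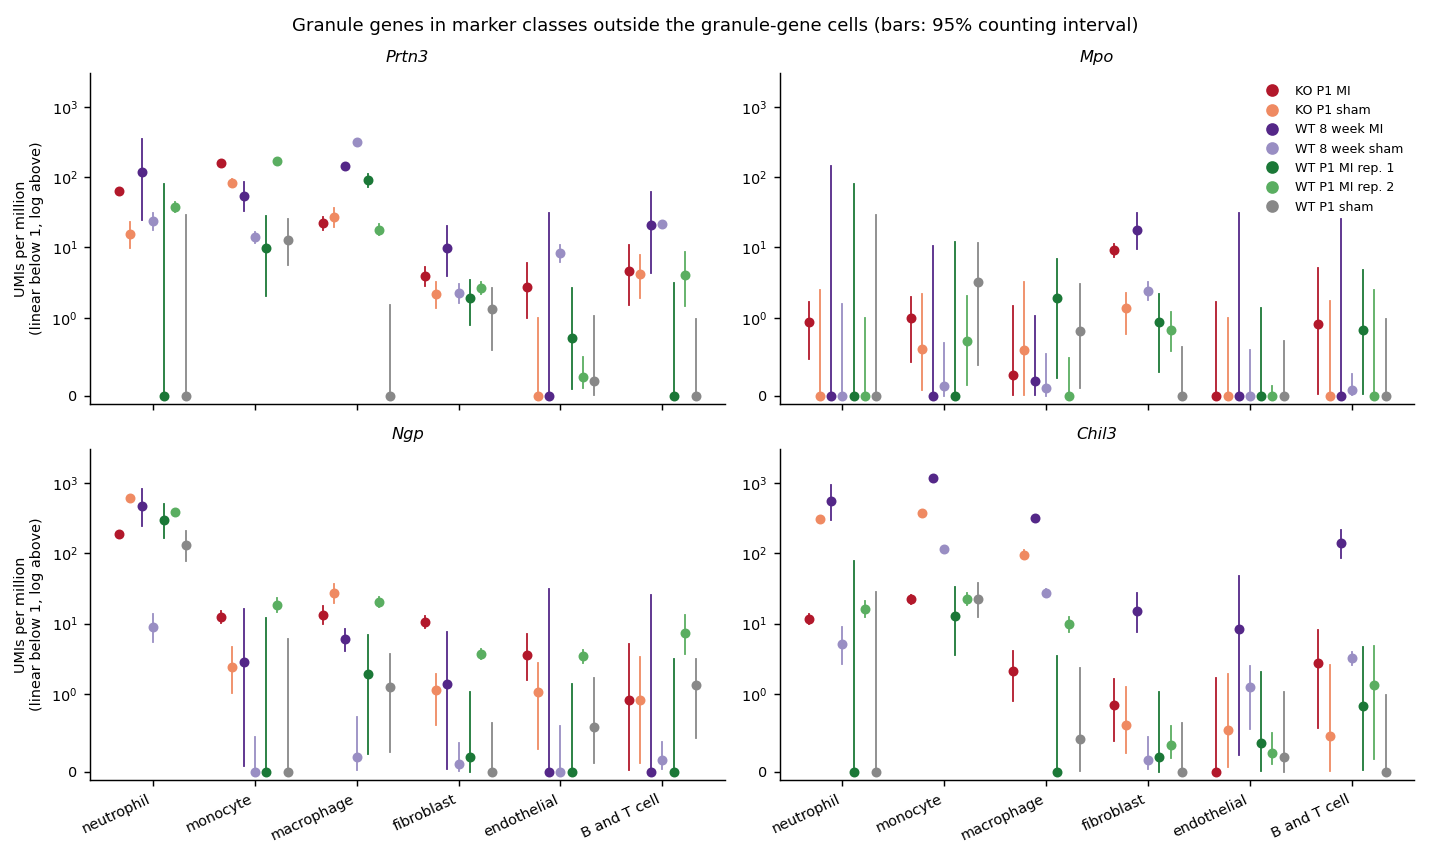
Levels of granule genes, in CPM, in marker classes outside the granule-gene cells of the 7 libraries, on an axis linear below 1 and logarithmic above, with 95% counting intervals. Prtn3 reaches 317.5 in macrophages of WT 8 week sham and 170.1 in monocytes of WT P1 MI replicate 2, and Chil3 reaches 1162 in monocytes of WT 8 week MI.

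Chil3 was higher in the monocyte class than in the macrophage class in all 7 libraries. In cells of the monocyte class under the floor it was at 22.4 CPM in Mertk KO P1 MI, 368 in Mertk KO P1 sham, 1162 in WT 8 week MI, 113 in WT 8 week sham, 12.97 in replicate 1 and 22.6 in replicate 2 of WT P1 MI, and 22.6 in WT P1 sham. In macrophages it was at 2.09 CPM in Mertk KO P1 MI, 95.7 in Mertk KO P1 sham, 313 in WT 8 week MI, 27.5 in WT 8 week sham, 0 in replicate 1 and 9.75 in replicate 2 of WT P1 MI, and 0.418 in WT P1 sham. B and T cells of WT 8 week MI held 138 CPM (20 UMIs in 122 cells), and the interval of that level (84.4 to 213) lay below both its macrophages (298 to 328) and its monocytes (1052 to 1281). The floor cuts on Chil3 itself here. Of the 318 monocyte-class cells of WT 8 week MI, 117 had passed the floor and were left out of the 1162 CPM. Only 3 monocyte-class cells of that library passed without Chil3.

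Camp and Ngp were low in B and T cells, but in some libraries macrophages held as much Ngp as Prtn3. Macrophages had 155 Ngp UMIs against 136 of Prtn3 in WT P1 MI replicate 2, and 46 against 46 in Mertk KO P1 sham. It was 51 against 84 in Mertk KO P1 MI and 3 against 0 in WT P1 sham. In WT 8 week MI it was 32 against 765, in WT 8 week sham 2 against 3277 and in WT P1 MI replicate 1 2 against 95. The part of free RNA in these counts was not tested. In B and T cells all 8 genes together were at 14.7 CPM in Mertk KO P1 MI, 6.49 in Mertk KO P1 sham, 159 in WT 8 week MI (mostly Chil3), 25.8 in WT 8 week sham (mostly Prtn3), 1.68 in replicate 1 and 18.0 in replicate 2 of WT P1 MI, and 4.001 in WT P1 sham. Ngp in those cells was at 0 to 7.32 CPM over the 7 libraries. Mpo gave fibroblasts 9.11 CPM in Mertk KO P1 MI (95 UMIs in 58 of 671 cells) and 18.0 CPM in WT 8 week MI (13 UMIs), against 1.38 in Mertk KO P1 sham and 2.43 in WT 8 week sham. In B and T cells Mpo was at 0.920 CPM in Mertk KO P1 MI and 0 in WT 8 week MI.

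Cycling was read as a UMI of Mki67 or Top2a, genes of dividing cells, after each cell had been thinned to 2000 UMIs and shallower cells left out. Among granule-gene cells it was 8 of 182 in Mertk KO P1 MI (4.40%, 1.92 to 8.48), 1 of 161 in Mertk KO P1 sham (0.621%, 0.0157 to 3.41), 1 of 30 in WT 8 week MI and 13 of 151 in WT P1 MI replicate 2 (8.61%, 4.66 to 14.3). Left out as shallow were 7, 13, 145 and 4 cells of these libraries. Unthinned, the shares were 7.41% in Mertk KO P1 MI, 3.45% in Mertk KO P1 sham, with 22.6% in WT P1 MI replicate 2. Free RNA can give such a UMI, and its part was not tested.

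Granule-gene cells were set in steps of granule gene level beside other cells of the neutrophil class. Among these steps the share was highest in the cells richest in granule transcripts in Mertk KO P1 MI and WT P1 MI replicate 2. In Mertk KO P1 sham it was low at each step. In cells with at least 2% of UMIs from the 7 genes other than Chil3 it was 7 of 79 in Mertk KO P1 MI (8.86%), 1 of 73 in Mertk KO P1 sham (1.37%) and 11 of 84 in WT P1 MI replicate 2 (13.1%). Between 0.5% and 2% it was 1 of 101 in Mertk KO P1 MI (0.990%), 0 of 42 in Mertk KO P1 sham and 2 of 67 in WT P1 MI replicate 2 (2.99%). In the neutrophil class under the floor it was 1.27%, 1.26% and 0.912% in the same order. Over all kept cells outside the granule-gene cells it was 5.73%, 9.21% and 12.2%. That last set includes the neutrophils under the floor and is not a further step, and other cell types were not shown apart from them. The intervals of neighbouring steps overlap in each library, those of the highest step and of the neutrophils under the floor do not in Mertk KO P1 MI and WT P1 MI replicate 2, and cells of 1 library are not replicates. In WT P1 MI replicate 2 with doublets kept in, 27 of 226 granule-gene cells (11.95%) had such a UMI after thinning.

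**Figure D5:**
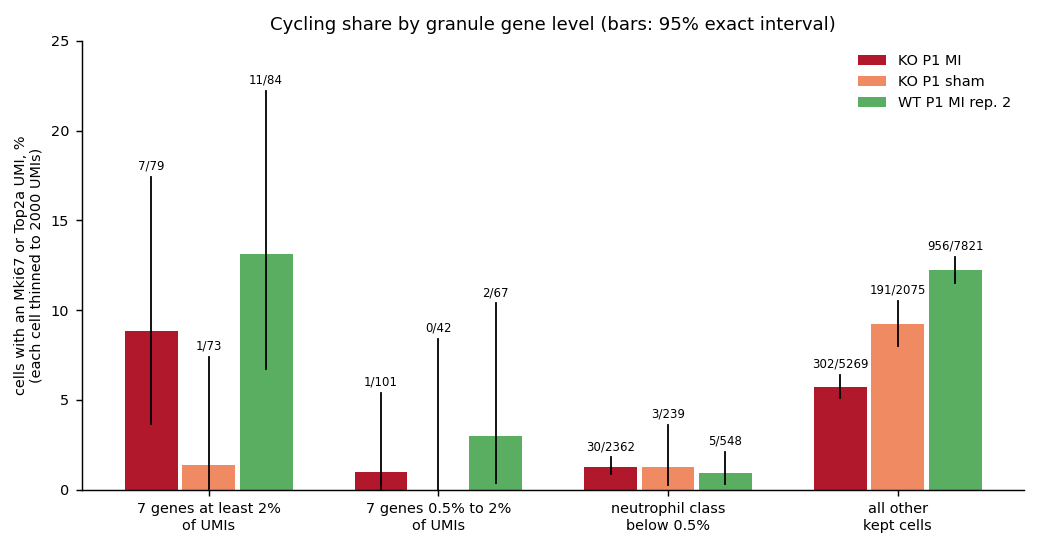
Percentage of cells with a UMI of Mki67 or Top2a after thinning to 2000 UMIs, by granule gene level, in the 3 libraries with over 100 granule-gene cells that pass without Chil3; bars are 95% exact intervals. In Mertk KO P1 MI and WT P1 MI replicate 2 the share is 8.86% and 13.1% in cells with at least 2% granule UMIs and 1.27% and 0.912% in neutrophils under the floor. All other kept cells include those neutrophils.

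Across granule-gene cells, the genes most like each set were ranked by their mean correlation, within each of 4 libraries with at least 100 such cells (693 cells, 2884 genes), with the set's summed level per 10000 UMIs on a log scale. Cells of 1 library share its preparation and depth, and the values are descriptions. With the secondary sum, Lcn2 had a mean r of 0.49 (0.39 to 0.71 over the libraries), Anxa1, an anti-inflammatory annexin, 0.45, Aldh2 0.41, Lyz2, for lysozyme, 0.40, Pglyrp1, a peptidoglycan-binding granule protein, 0.40 and Arhgdib 0.39. The most opposite were Srgn at -0.38 and Il1b at -0.38, the latter at -0.59 to -0.16 over the 4 libraries. In WT 8 week MI Chil3 gave 84.8% of the secondary UMIs of these cells, so the sum was mostly Chil3 there. Without that library Srgn was at -0.47 and Il1b at -0.45 (-0.59 to -0.34). Without Chil3, Srgn at -0.49 was again the most opposite, and Il1b was not among the 4 most opposite. Pglyrp1 was not among the 10 highest in either alternative.

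With the primary sum, which is carried by Prtn3 (mean r 0.97), the values were lower. Rsl1d1, a nucleolar protein, had a mean r of 0.38 (0.15 to 0.53), Dpy30 0.37, Snrpd1, a splicing protein, 0.34, the ribosomal protein genes Rpl3 0.33 and Rpl12 0.30, and Krtcap2 0.30. Camp and Ngp had -0.10 and -0.27 with it. In counts as sparse as these, correlations of this size are no finding. Rsl1d1, Snrpd1, Dpy30, Rpl3 and Krtcap2 were again among the 6 highest without WT 8 week MI, and Snrpd1 alone of the 6 without Chil3.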

How the data were processed

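For each of 7 libraries the authors deposited unnormalized UMI counts of genes by barcodes, made with Cell Ranger (4.0.0 or 6.1.0, per the file headers) on GRCm38 (mm10), per the submitters' processing notes. A barcode was kept from 500 UMIs and 300 genes upwards and up to 15% mitochondrial UMIs. Scrublet (scanpy 1.11.5) scored doublets, and since its automatic threshold marked few, the highest scores were removed, 0.8% per 1000 barcodes. Kept cells' counts were summed per library and tested with edgeR 4.0.16 (R 4.3.3) in 1 fit of 7 libraries and 6 groups with 1 residual degree of freedom, with DESeq2 1.42.0 as an alternative. Adjusted p-values are Benjamini-Hochberg over 16854 genes. The fit was tested on simulated counts for the genotype comparison of infarcted P1 hearts where it recovered 100% of 4-fold and of 16-fold changes at a dispersion of 0.02 (16100 genes), and 2.06% and 81.6% at 0.2 (16212 genes). The data's own coefficient of variation was 28.6%, a dispersion between those. Changed genes were drawn only from well counted ones and all genes had the same dispersion. These rates therefore do not apply to the scarce primary genes. The planned fit of granule-gene cell sums was not run. Named genes are the 8 members, up to 4 genes of highest mean CPM per list and the 6 genes most like each set. The members and lists were chosen with earlier results of these data known.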

Additional observations from a re-analysis of the deposited data

How the results depend on the processing

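The share of granule-gene cells follows its floor. At 0.2% of UMIs it was 4.68% in Mertk KO P1 MI, 9.68% in Mertk KO P1 sham, 13.8% in WT 8 week MI and 0.271% in WT 8 week sham, and at 2% it was 1.32%, 3.37%, 0.459% and 0.0150%. Without Chil3 it was 4.90% in Mertk KO P1 sham, 0.164% in WT 8 week MI and 0.0301% in WT 8 week sham. The primary-led share at 2% was 0% in Mertk KO P1 MI (of 82 cells), 7.14% in WT 8 week MI (of 14) and 0% in WT P1 MI replicate 2 (of 87), and without Chil3 it was 20% in WT 8 week MI (of 5). The cycling share there was then 33.3% (of 3), an alternative chosen after seeing the data. Without doublet removal the 8 genes in B and T cells were at 18.7 CPM in Mertk KO P1 sham and 36.2 CPM in WT 8 week sham, and Prtn3 in macrophages of WT 8 week sham at 287 CPM.

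Counts of all genes called depended on the tool and filters, and the cause was not tested. Between WT P1 MI and WT P1 sham, 3 genes were called, against 103 with DESeq2, 553 with no filter on low counts and 133 without doublet removal. Between Mertk KO P1 MI and WT P1 MI it was 2024, and 3330 with no filter. For injury by genotype it was 13, against 65, 494 and 64, and for injury by age 621, against 2132 with no filter and 1227 without doublet removal. With no filter, 8 members were called for infarction at P1, 6 for age, 4 for genotype after infarction, 7 in injury by genotype and 3 in injury by age. Over all 24289 genes tested in that way, 553, 5948, 3330, 494 and 2132 were called in the same order. Without doublet removal the members called were 4, 4, 1, 1 and 1, against 133, 5481, 2670, 64 and 1227 of all 16961 genes. The 4 genes called for age stayed called under DESeq2, no filter and no doublet removal.

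Leaving out 1 replicate put the WT P1 MI share of granule-gene cells at 0.913 to 1.69%. These fits have no residual degree of freedom and give values with no test. The alternatives planned for sums over granule-gene cells were not run, since that fit could not be made. The other 79 recomputed values that answer a comparison stayed within their counting interval, their SD or 1.5 times the count. No paired analysis was possible because the groups share no replicate number apart from single libraries numbered in accession order. Depth limits the primary genes most, with 2 to 42 UMIs each in WT P1 sham.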
